A study of Mus musculus with 6 samples.

Results

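Leukocyte surface receptor and lectin genes were compared between injured livers of mice whose hepatic stellate cells (HSCs), the pericytes of the liver sinusoid that store vitamin A, could or could not make the growth factor FGF18. They were taken by gene name from the deposited table of 3201 genes. The rule kept protein-coding genes of the Cd, Ly6 and other Ly, Klr, Clec, Fc receptor, Siglec, Lilr, Pir, Ms4a, Gimap, Trem, Vsig, Ccr, Cx3cr and selectin families, with *Marco* and *Mrc1*, and found 43. A further 2 rows with such names, *Clec7a* and *Gimap1os*, are listed under other gene types and were not counted.

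Livers of 3 Fgf18 f/f and 3 Fgf18 ΔHSC mice, male and on a C57BL/6 background, were sequenced after ischemia for 1 h and reperfusion for 6 h (I/R). In Fgf18 ΔHSC mice, labelled 18KO, Cre driven by the GFAP promoter deletes loxP-flanked *Fgf18*, whereas Fgf18 f/f mice, labelled IR, carry the flanked gene. For the IR livers only the surgery is labelled, and their genotype comes from the study's methods. The promoter's activity in other cells and the age of the mice were not examined here, *Fgf18* itself was not analysed here, so no check of the labels by the deleted gene was made, and no liver without I/R was part of the comparison.

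The cells that carry these receptors reach or reside in the liver in different ways. Kupffer cells are the resident macrophages of the sinusoid, while monocytes and neutrophils arrive from blood after reperfusion, guided by selectins and by chemokine receptors such as CCR2. Many of their Fc receptors, paired immunoglobulin-like receptors and C-type lectins either activate the cell through adaptor chains with tyrosine motifs or restrain it through inhibitory motifs of their own. Lymphocytes carry other families, among them the GIMAP GTPases.

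Every value is a level in TPM, reads per length of gene scaled to the same total in each library. Every row of the table had already met a fold change and unadjusted p limit when the authors compared these same livers (absolute log2 fold change of 1, p of 0.05). A count of differing genes therefore describes genes selected for a difference, and the p-values below are no independent evidence of it. The 3 livers of a group are different animals. The members held 5201 to 10247 recovered reads per liver, 1 read on a 1 kb gene was worth 0.0374 to 0.0655 TPM, and 30 of the 43 members averaged 1 TPM or more in one genotype or both. In whole liver, fewer cells of a type and less RNA per cell cannot be told apart.

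Of the 43 members, 38 had higher and 5 had lower levels in Fgf18 ΔHSC livers. Past the threshold (limma over all 3201 rows, adjusted p under 0.05 and absolute log2 fold change above 1) were 32 higher members, 74.4% of the 43, where 41.6% of all rows were called higher. The 5 lower members all passed, which is 11.6% of the 43, where 30.0% of all rows were called lower, and in either direction 37 members passed beside 71.7% of all rows. The median log2 fold change was 1.23 over the members and 0.88 over all rows. In each of the 43 members the levels of the groups did not overlap, and this held for 96.3% of all rows. The 32 fell to 13 with a pseudocount of 1 and to 7 in livers rescaled by their median ratio, a rescaling that lowered the median log2 fold change of all rows by 0.69. In both settings all 43 members kept their direction. The ratios were taken over these same rows, which were selected for a difference, so rescaling can remove part of the difference between the groups. In rescaled livers the log2 fold change of *Cd68* went from 1.80 to 0.78 and that of *Cd1d1* from -1.04 to -2.07.

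**Figure D1:**
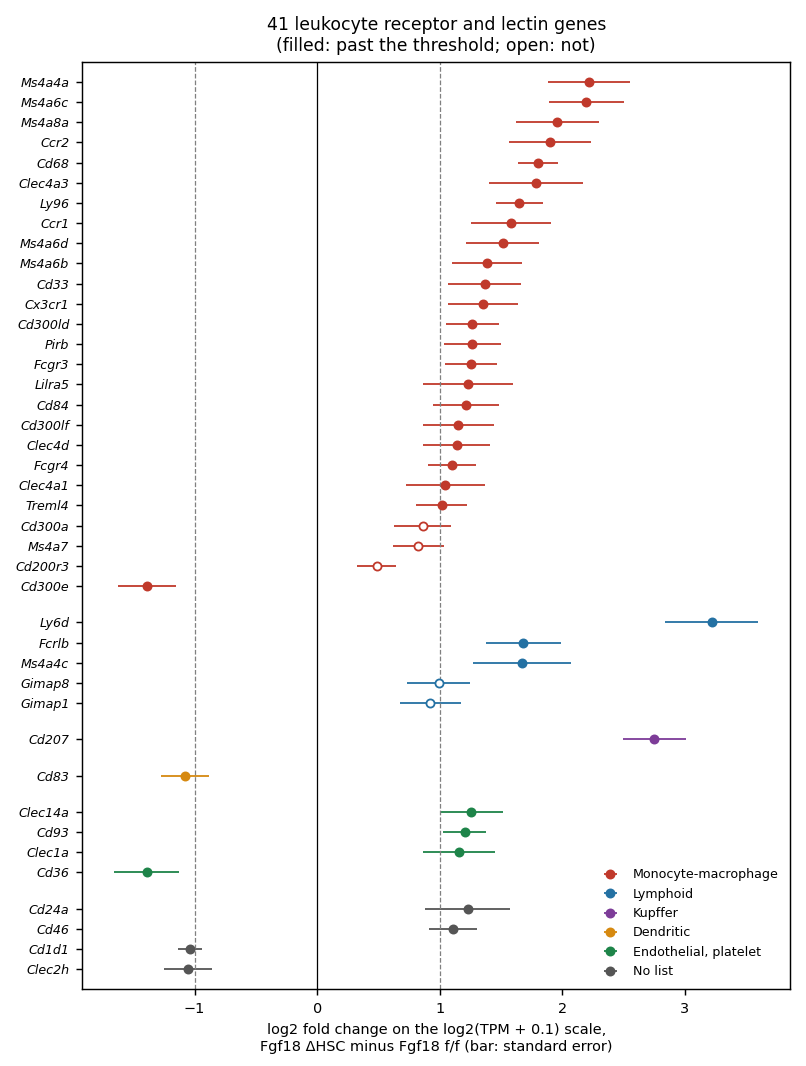
Log2 fold change of 41 of the 43 members on the log2(TPM + 0.1) scale, Fgf18 ΔHSC minus Fgf18 f/f, with the standard error as a bar, grouped by list; filled points passed the threshold, open points did not, and dashed lines mark 1 and -1. The 31 called higher members lie to the right of 1 and the 5 called lower members to the left of -1.

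Most of the members were on a list of monocyte and macrophage receptors. The list of genes known from these cells held 27 members, of which 26 were higher, while *Cd300e* was lower. Of the 26, 22 passed the threshold, 81.5% of the 27, where 41.6% of all rows were called higher. Their summed level was 30.1, 28.0 and 31.4 TPM in Fgf18 f/f livers, compared with 72.7, 73.9 and 116 TPM in the Fgf18 ΔHSC livers. Among the 27, the median log2 fold change was 1.26. The sum rose in all Fgf18 ΔHSC livers, and the third of them stood above the other two. The list is not exclusive to monocytes and macrophages, since *Ccr1* is also a receptor of neutrophils. Whether neutrophils express the other listed members was not examined.

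Sequence before the start of these genes is shown for members that rose with the list, beside members that lack the motif searched. The transcription factor PU.1, known for its role in myeloid cells, binds a purine-rich box with the letters GAGGAA. RefSeq windows of build GRCm38.p6 were matched by symbol for 33 of the 43 members. In the 250 bases before the start, on either strand, GAGGAA occurred in 20 of 30 higher members, in 0 of 3 lower members, and in 25.9% of the 27025 genes with a window. The letters TTGCNNAA of C/EBP factors occurred in 5 of the 30 (10.8% of all), and the letters TGACNNNGC of the antioxidant response element, the site of Nrf2, also in 5 (11.5% of all). The AP-1 letters TGANTCA were found in 5 higher members and in *Clec2h*, with 7.82% of all. TGANTCA and TGACNNNGC can overlap. The motifs and the windows shown were chosen after the values were seen. No set of leukocyte genes without a change was compared, and 3 lower members are too few for a comparison by direction. A match of so few letters is a description of the window and not a binding site. The 150 bases before the start are printed 5′ to 3′ on the strand of the gene, with GAGGAA or its reverse complement in capitals.
Pirb (chr7:3720383-3720532, minus strand): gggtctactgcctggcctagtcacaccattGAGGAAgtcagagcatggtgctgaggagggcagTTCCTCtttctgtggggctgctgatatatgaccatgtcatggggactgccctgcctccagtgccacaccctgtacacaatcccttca
Ccr1 (chr9:123968693-123968842, minus strand): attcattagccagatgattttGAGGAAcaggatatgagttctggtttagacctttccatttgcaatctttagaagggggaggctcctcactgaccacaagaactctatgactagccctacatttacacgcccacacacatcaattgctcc
Fcgr4 (chr1:171018776-171018925, plus strand): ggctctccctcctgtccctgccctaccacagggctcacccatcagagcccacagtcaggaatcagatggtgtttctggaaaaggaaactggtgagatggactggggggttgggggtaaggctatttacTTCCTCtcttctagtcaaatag
Cd300lf (chr11:115133993-115134142, minus strand): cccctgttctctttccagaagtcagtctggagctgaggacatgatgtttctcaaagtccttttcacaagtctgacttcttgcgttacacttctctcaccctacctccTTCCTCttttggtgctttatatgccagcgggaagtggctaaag
Cd207 (chr6:83677858-83678007, minus strand): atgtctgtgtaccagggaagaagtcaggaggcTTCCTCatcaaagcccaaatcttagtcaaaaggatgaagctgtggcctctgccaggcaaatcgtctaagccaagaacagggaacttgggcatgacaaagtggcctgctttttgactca
Ms4a6c (chr19:11469218-11469367, plus strand): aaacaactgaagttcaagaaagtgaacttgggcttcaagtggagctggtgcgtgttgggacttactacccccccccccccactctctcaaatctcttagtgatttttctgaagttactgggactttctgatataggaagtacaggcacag
Clec2h (chr6:128662235-128662384, plus strand): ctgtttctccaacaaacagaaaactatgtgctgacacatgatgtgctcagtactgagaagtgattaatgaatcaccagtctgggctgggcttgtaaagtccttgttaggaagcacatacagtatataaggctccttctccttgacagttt
The windows of *Pirb*, *Ccr1*, *Fcgr4*, *Cd300lf* and *Cd207* hold the letters, whereas that of *Ms4a6c*, which rose more than the first 4 of these, and that of *Clec2h*, which fell, do not.

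The Ms4a genes, which encode small proteins that span the membrane several times and are best known from CD20 of B cells, contributed 7 members that lie together on chromosome 19 (11067471 to 11604849, GRCm38). All 7 had higher levels and 6 passed the threshold (85.7%, beside 41.6% of all rows called higher). *Ms4a6c* had 0.583, 0.701 and 0.840 TPM in Fgf18 f/f livers, compared with 2.87, 2.65 and 5.92 TPM in the Fgf18 ΔHSC livers. The lowest Fgf18 ΔHSC liver was thus well above the highest Fgf18 f/f liver, and the change was 2.19 on the log2(TPM + 0.1) scale (SE 0.31, adjusted p = 0.000328 by limma). For *Ms4a4a* the levels were 0.670, 0.537 and 0.332 TPM against 2.13, 2.04 and 4.35 TPM, a log2 fold change of 2.22 ± 0.34 (SE, adjusted p = 0.000484 by limma). *Ms4a8a* rose from 0.271, 0.375 and 0.619 TPM to 1.21, 1.97 and 2.65 TPM (log2 fold change 1.96 ± 0.34 SE, adjusted p = 0.000919 by limma). These 3 genes passed the threshold in each of the 15 alternatives tried. *Ms4a6d* and *Ms4a6b* changed less, by 1.51 and 1.39 on the log2 scale. *Ms4a7*, a macrophage member of the family, had 0.0168 to 0.0873 TPM in Fgf18 f/f livers, compared with 0.148 to 0.162 TPM in Fgf18 ΔHSC livers, on 2 to 15 reads per liver, and the log2 fold change, 0.82, did not pass. Genes of this cluster are close copies of each other, and reads could have been divided between them unevenly.

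Chemokine receptors of monocytes were also higher. *Ccr2*, the receptor through which monocytes leave the bone marrow, lies on chromosome 9 (124101950 to 124113557) and had 0.199, 0.219 and 0.320 TPM in Fgf18 f/f livers, compared with 1.05, 0.765 and 1.98 TPM in Fgf18 ΔHSC livers. The means differed 5.14-fold, with a log2 fold change of 1.90 ± 0.34 (SE, adjusted p = 0.00103 by limma). *Ccr1*, a receptor of monocytes and neutrophils, rose from 1.54 ± 0.162 to 5.24 ± 2.80 TPM (mean ± SD, n = 3 per genotype), with 4.22, 3.10 and 8.40 TPM in the Fgf18 ΔHSC livers (log2 fold change 1.58 ± 0.33 SE, adjusted p = 0.00215 by limma). The SD of the Fgf18 ΔHSC livers was many times that of the Fgf18 f/f livers, because the third liver stood far above the second. *Cx3cr1*, the fractalkine receptor, passed with a log2 fold change of 1.35, on 1 to 8 reads in each Fgf18 f/f liver and 11 to 32 reads in each Fgf18 ΔHSC liver.

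*Cd68* and *Ly96* had the smallest standard errors among the called genes of the list. *Cd68* (chromosome 11, 69664213 to 69666153), a lysosomal glycoprotein of macrophages, had 5.17, 3.86 and 4.59 TPM in Fgf18 f/f livers, compared with 13.5, 16.2 and 18.5 TPM in Fgf18 ΔHSC livers. Its mean was 3.55-fold higher, and the log2 fold change was 1.80 ± 0.16 (SE, adjusted p = 5.23e-05 by limma). *Ly96*, which encodes the MD-2 protein that binds lipopolysaccharide with Toll-like receptor 4, had 2.38, 1.89 and 2.83 TPM in Fgf18 f/f livers. In Fgf18 ΔHSC livers it had 6.19, 8.40 and 8.22 TPM, a log2 fold change of 1.65 ± 0.19 (SE, adjusted p = 0.000134 by limma). Neither gene had its lowest Fgf18 ΔHSC level in liver 2, where *Ccr1*, *Ccr2* and *Ms4a6c* were lowest. *Cd68* and *Ly96* passed in 14 of the 15 alternatives, and in rescaled livers neither did.

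Fc receptors and paired receptors included activating and inhibitory members that rose. On the activating list *Fcgr3*, *Fcgr4*, *Clec4d*, *Lilra5* and *Cd300ld* passed as higher, and on the inhibitory list 3 of 4 members did, *Cd300a* being the exception. These were 100% of the activating and 75% of the inhibitory members, beside 41.6% of all rows called higher. The activating list does not hold *Cd300e*, an activating receptor that was lower. *Fcgr3*, an activating receptor for immunoglobulin G, had 3.40, 3.23 and 4.19 TPM in Fgf18 f/f livers, compared with 8.41, 6.67 and 11.6 TPM in Fgf18 ΔHSC livers. *Fcgr4*, which shares its signalling chain, had 1.67, 1.75 and 2.17 TPM against 3.15, 4.79 and 4.51 TPM. The log2 fold changes were 1.25 for *Fcgr3* and 1.1 for *Fcgr4*. In both genes the groups did not overlap, which held for 96.3% of all rows. *Pirb*, the inhibitory paired receptor, had 1.57, 1.66 and 1.56 TPM against 3.94, 2.85 and 5.58 TPM, a log2 fold change of 1.26 that lay between those of the activating members *Clec4d* (1.14) and *Cd300ld* (1.27). Its sequence is close to that of the Pira genes, which could share reads with it. *Cd33*, a sialic acid-binding lectin whose human counterpart is inhibitory, had 1.53 ± 0.217 and 4.33 ± 1.79 TPM (mean ± SD, n = 3 per genotype). *Lilra5*, an activating receptor, rested on 2 to 11 reads in each Fgf18 f/f liver and 10 to 20 reads in each Fgf18 ΔHSC liver. The call of *Fcgr4* was lost without Fgf18 ΔHSC liver 2, and that of *Lilra5* and of the triggering receptor gene *Treml4* without that liver or Fgf18 f/f liver 2.
The 4 Cd300 genes, a cluster of lipid-binding receptors on chromosome 11 (114890041 to 115133992), did not all move one way. *Cd300lf* and *Cd300ld* rose, by 1.15 and 1.27 on the log2 scale. *Cd300a*, an inhibitory member, had 0.213, 0.313 and 0.270 TPM against 0.529, 0.456 and 0.715 TPM, and its log2 fold change of 0.86 ± 0.23 (SE, adjusted p = 0.00724 by limma) did not pass. *Cd300e*, which is expressed by monocytes and lies between them, fell from 0.322, 0.258 and 0.479 TPM to 0.0693, 0.0940 and 0.0484 TPM, a log2 fold change of -1.39. The fall rested on 48 reads in the 3 Fgf18 f/f livers and 8 reads in the 3 Fgf18 ΔHSC livers, a 4.99-fold difference at equal depth with an exact 95% interval of 2.34 to 12.2 for counting error alone.

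C-type lectins of the Clec4 cluster on chromosome 6 (122921848 to 123275265) were higher as well. *Clec4d*, a receptor for mycobacterial glycolipids, had 3.67, 3.82 and 3.40 TPM in Fgf18 f/f livers, compared with 7.72, 5.44 and 12.7 TPM in Fgf18 ΔHSC livers. *Clec4a3* rose from 0.394, 0.203 and 0.167 TPM to 0.581, 1.38 and 1.52 TPM (log2 fold change 1.79 ± 0.38 SE, adjusted p = 0.00261 by limma), on 4 to 14 reads in each Fgf18 f/f liver. For *Clec4a1* the groups barely separated, at 1.32 TPM in the highest Fgf18 f/f liver and 1.36 TPM in the lowest Fgf18 ΔHSC liver, and its log2 fold change was 1.04. *Clec4d* and *Clec4a1* did not pass without Fgf18 ΔHSC liver 3, nor did *Clec4a1* without Fgf18 f/f liver 1 or 2. Over the 42 members with a level above 0 in both groups, the ratio across the gap between the groups had a median of 1.76, and it was under 1.2 in *Clec4a1*, *Lilra5* and *Cd24a*.

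**Figure D2:**
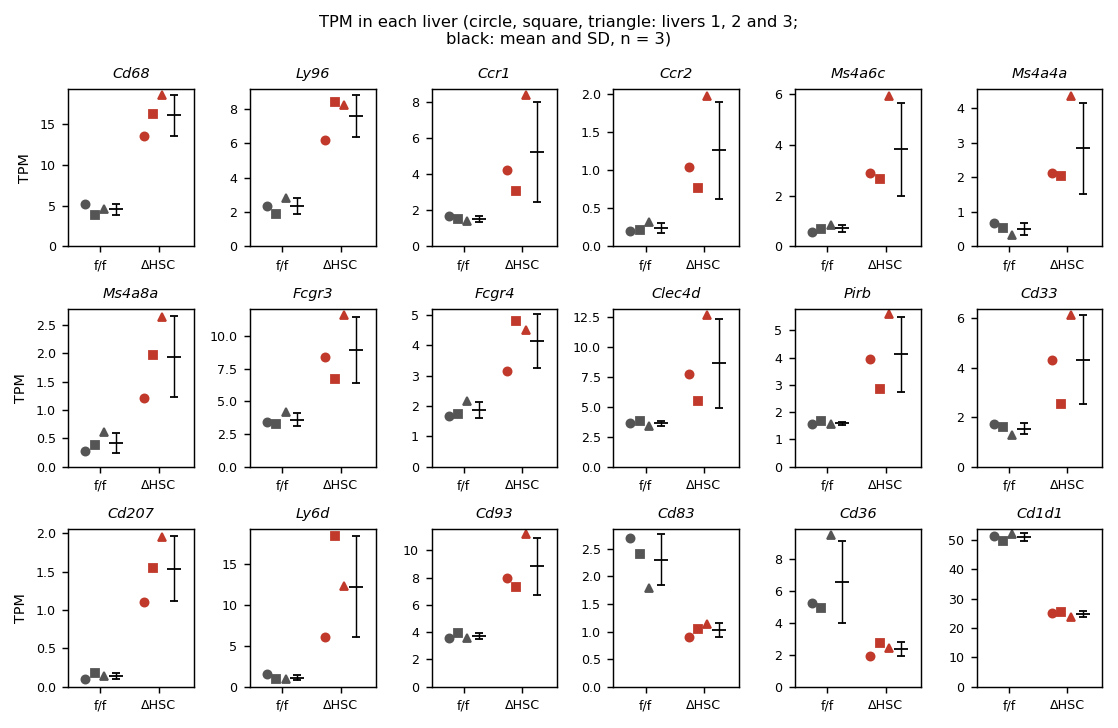
TPM of 18 members in each liver (grey, Fgf18 f/f; red, Fgf18 ΔHSC; circle, square and triangle for livers 1, 2 and 3) with the mean and SD of the 3 livers in black, each axis from 0. The groups do not overlap in any panel, which held for 96.3% of all rows. *Cd83*, *Cd36* and *Cd1d1* are lower in Fgf18 ΔHSC livers, and in *Ccr1*, *Cd33* and *Cd93* liver 3 is highest and liver 2 lowest.

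The Fgf18 ΔHSC livers differed among themselves in an order that many of these genes shared. Of the 38 higher members, 28 had their highest level in liver 3, which is 73.7%, beside 48.9% of all 2083 higher rows. In 19 of them the order ran from liver 3 through liver 1 to liver 2, which is 50%, beside 27.9% of all higher rows. The median ratio of liver 3 to liver 2 was 1.49, with a range from 0.643 to 3.63. *Ms4a4c* was at the upper end, with 2.31 and 0.635 TPM, and *Cd33* had 6.13 and 2.54 TPM. *Fcgr4*, *Ly6d*, *Ly96*, *Lilra5*, *Clec14a*, *Treml4* and *Cd200r3* were highest in liver 2 instead. The 4 neutrophil markers that were higher, *Csf3r*, *Cxcr2*, *Il1r2* and *Mmp8*, and the 3 monocyte markers outside the families, *Vcan*, *Chil3* and *F13a1*, all ran from liver 3 through liver 1 to liver 2. Without liver 3, 28 members were called higher, and with it 32, and *Cd300lf* was among the calls lost.

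**Figure D3:**
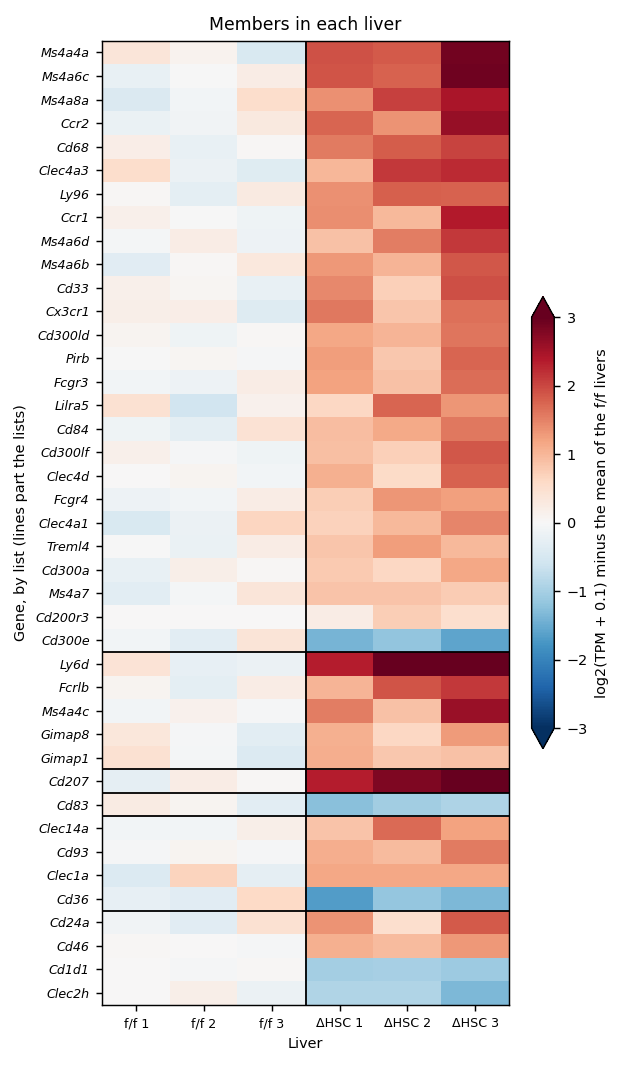
Log2(TPM + 0.1) of 41 of the 43 members in each liver minus the mean of the 3 Fgf18 f/f livers, with values past 3 drawn at 3 and lines between the lists. The 36 higher members are red in each Fgf18 ΔHSC liver, in 26 of them most strongly in liver 3, and the 5 lower members are blue.

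Lymphoid genes were fewer. The lymphoid list held 6 members, all of them higher, and 4 passed the threshold (66.7%, beside 41.6% of all rows called higher). *Ly6d* (chromosome 15, 74762056 to 74763620), a lipid-anchored surface protein that marks B-lineage progenitors and is also made by keratinocytes, had the largest log2 fold change among the 43 members. It had 1.51, 0.905 and 0.970 TPM in Fgf18 f/f livers, compared with 6.03, 18.3 and 12.2 TPM in Fgf18 ΔHSC livers, a log2 fold change of 3.22 ± 0.38 (SE, adjusted p = 0.000147 by limma). Its order among the Fgf18 ΔHSC livers was the reverse of that of *Ccr2* for livers 1 and 2. *Ms4a4c*, which monocytes also express, had a log2 fold change of 1.67 ± 0.40 (SE, adjusted p = 0.00418 by limma). *Fcrlb*, an Fc receptor-like protein of B cells, had 2 reads in the Fgf18 f/f livers together and 22 in the Fgf18 ΔHSC livers, a 13.2-fold difference at equal depth with an exact 95% interval from 3.25 to 116.
The GTPase genes *Gimap8* and *Gimap1*, which support lymphocyte survival, did not pass. *Gimap8* had 0.626, 0.461 and 0.360 TPM in Fgf18 f/f livers, compared with 1.11, 0.778 and 1.28 TPM in Fgf18 ΔHSC livers, with a log2 fold change of 0.99 ± 0.26 (SE, adjusted p = 0.00628 by limma). *Gimap1*, on 2 to 18 reads per liver, had one of 0.92 ± 0.25 (SE, adjusted p = 0.00738 by limma), and its antisense partner *Gimap1os* is listed beside it, so that reads of the pair are separated only if strand was used in the counting. Of 18 markers of T and NK cells only *Gzma* had values, and it was lower, at 0.817 to 1.38 TPM against 0.130 to 0.603 TPM. Of 11 B cell markers *Ighm* and *Jchain* had values, and both were higher. The remaining markers of these cells are not among the 3201 rows, each of which met the authors' limits. The lymphoid label was therefore not checked against them.

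The Kupffer list had 1 member with values, *Cd207*. *Cd207* (chromosome 6, 83671215 to 83677857) encodes langerin, a lectin best known from Langerhans cells, and had 0.0982, 0.177 and 0.146 TPM in Fgf18 f/f livers, compared with 1.11, 1.55 and 1.96 TPM in Fgf18 ΔHSC livers. On 4 to 6 reads in each Fgf18 f/f liver and 35 to 59 in each Fgf18 ΔHSC liver, the means differed 11-fold, with a log2 fold change of 2.75 ± 0.26 (SE, adjusted p = 5.86e-05 by limma). It passed in all 15 alternatives, with log2 fold changes from 1.14 to 3.36. The defining Kupffer genes *Clec4f*, *Marco*, *Vsig4*, *Cd5l* and *Timd4* are not among the 3201 rows, each of which met the authors' limits. Their levels are therefore not known here, and the Kupffer label of *Cd207* was not checked against them. Of 12 Kupffer cell markers, 4 had values and they did not move together, with *C1qa* and *C1qc* higher, *Slc40a1* lower, and *Adgre1* at a log2 fold change of 0.82 that did not pass. Their summed level was 13.3 to 16.1 TPM in Fgf18 f/f livers, compared with 16.8 to 24.2 TPM in Fgf18 ΔHSC livers.

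Besides *Cd300e*, the lower members were *Cd83* of the dendritic list, *Cd36* of the endothelial and platelet list, and *Cd1d1* and *Clec2h*, which are on no list. *Cd1d1* (chromosome 3, 86995834 to 86999441), which presents lipids to natural killer T cells, had the highest level of the 43 members, at 51.3, 49.5 and 52.0 TPM in Fgf18 f/f livers, compared with 25.1, 25.5 and 23.7 TPM in Fgf18 ΔHSC livers. The livers of each genotype lay close together, and the log2 fold change was -1.04 ± 0.10 (SE, adjusted p = 5.8e-05 by limma). *Cd36*, a scavenger receptor that takes up fatty acids, fell from 5.22, 4.90 and 9.46 TPM to 1.89, 2.73 and 2.39 TPM (log2 fold change -1.39 ± 0.26 SE, adjusted p = 0.00143 by limma). *Cd83*, a marker of mature dendritic cells, fell from 2.70, 2.41 and 1.79 TPM to 0.900, 1.04 and 1.14 TPM (log2 fold change -1.08 ± 0.20 SE, adjusted p = 0.00123 by limma). The C-type lectin gene *Clec2h* fell from 1.96 ± 0.260 to 0.899 ± 0.164 TPM (SD, n = 3 per genotype), with a log2 fold change of -1.05 ± 0.20 (SE, adjusted p = 0.00132 by limma). Both *Cd83* and *Clec2h* were close to the limit of 1 and lost the call without some single livers, *Cd83* without Fgf18 f/f liver 1 or Fgf18 ΔHSC liver 1 and *Clec2h* without Fgf18 f/f liver 2 or Fgf18 ΔHSC liver 3.
Endothelial lectins went the other way from *Cd36*. *Cd93*, a transmembrane lectin of endothelium that myeloid cells also carry, had 3.60, 3.94 and 3.58 TPM in Fgf18 f/f livers, compared with 7.97, 7.30 and 11.2 TPM in Fgf18 ΔHSC livers (log2 fold change 1.2 ± 0.17 SE, adjusted p = 0.000388 by limma). *Clec14a* and *Clec1a*, lectins of endothelial cells, were at 0.0505 to 0.217 TPM in Fgf18 f/f livers, compared with 0.295 to 0.616 TPM in Fgf18 ΔHSC livers, and both passed, *Clec1a* not without Fgf18 f/f liver 1. Outside the lists, *Cd24a*, a surface glycoprotein of many immature cells, rose from 1.39, 1.17 and 2.13 TPM to 3.98, 2.21 and 5.66 TPM (log2 fold change 1.23 ± 0.35 SE, adjusted p = 0.00912 by limma), a call that was lost without Fgf18 ΔHSC liver 3. *Cd46*, a complement regulator, had 0.152 ± 0.00569 and 0.448 ± 0.0704 TPM (mean ± SD, n = 3 per genotype). *Cd200r3* was at 0 reads in the 3 Fgf18 f/f livers and at 2, 6 and 5 reads in the Fgf18 ΔHSC livers, at least 1.80-fold higher against a floor of 3 reads per liver, and did not pass.

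Partners of these receptors in signalling and adhesion were taken from a separate list, of which 15 genes had values. Past the threshold were 8 higher (53.3%, beside 41.6% of all rows) and 5 lower (33.3%, beside 30.0% of all rows). *Itgam*, the alpha chain of the Mac-1 integrin, rose from 0.141, 0.197 and 0.144 TPM to 0.528, 0.430 and 1.23 TPM (log2 fold change 1.55 ± 0.35 SE, adjusted p = 0.00314 by limma). *Tlr13*, a receptor for bacterial ribosomal RNA, and *Fcna*, the macrophage lectin ficolin A, rose by 1.5 and 1.34 on the log2 scale. *Tyrobp*, the adaptor DAP12 of many activating receptors, rose by 1.06, and *Tlr4*, the partner of *Ly96*, by 1.23. Those that fell included *Icam1*, the endothelial ligand of Mac-1, with 37.7, 38.5 and 32.8 TPM against 12.3, 7.55 and 11.9 TPM (log2 fold change -1.80 ± 0.19 SE, adjusted p = 9.39e-05 by limma), *Tlr2* (-1.39), *Id3* (-1.35) and *Cebpb* (-1.35). Toll-like receptor genes thus moved both ways. In rescaled livers 0 of these partners were called higher.

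Markers of some cell types moved in the direction of most members, and those of others were divided or lower. All 6 monocyte markers with values, of 10 in the list, were called higher, with a summed level of 3.82 to 4.44 TPM in Fgf18 f/f livers, compared with 11.1 to 30.5 TPM in Fgf18 ΔHSC livers, and *Ccr1* and *Ccr2*, which are themselves members, are among these markers. Of 15 neutrophil markers 8 had values, and they divided, with 4 higher and 4 lower, among them the granule gene *Ngp* (10.4, 8.48 and 8.59 TPM against 0.947, 0.536 and 0.455 TPM). The direction of their sum rested on *Lcn2*, an iron-scavenging lipocalin, at 493, 480 and 401 TPM against 106, 149 and 130 TPM. Without it the neutrophil sum, an alternative chosen after seeing the data, was 29.6, 27.3 and 25.7 TPM in Fgf18 f/f livers against 44.3, 27.2 and 69.5 TPM in Fgf18 ΔHSC livers. All 4 sinusoidal endothelial markers with values, of 10 in the list, were higher, from 18.9 to 20.7 TPM in sum to 41.4 to 58.9 TPM. All 8 stellate cell markers with values, of 11 in the list, were higher, with 6 past the threshold, from 3.03 to 4.39 TPM in sum to 9.87 to 15.2 TPM. The 3 hepatocyte markers with values, *Cyp2e1*, *Cyp3a11* and *Pck1*, of 12 in the list, were all lower, from 2830 to 3057 TPM in sum to 849.6 to 1147 TPM. Only markers that met the authors' selection limits had values, so these sums do not describe the whole lists. Of all rows, 41.6% were called higher and 30.0% lower. The part of cell composition in the levels of the members was not tested, and no liver separates it from the genotype.

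**Figure D4:**
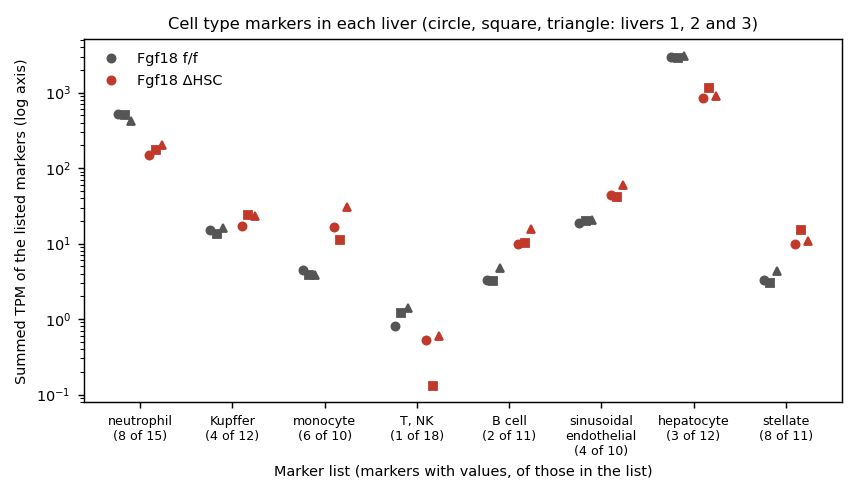
Summed TPM of the markers with values in each liver on a log axis, by cell type, with the number of markers that had values and the size of each list (grey, Fgf18 f/f; red, Fgf18 ΔHSC; circle, square and triangle for livers 1, 2 and 3). Kupffer, monocyte, B cell, sinusoidal endothelial and stellate sums are higher in each Fgf18 ΔHSC liver, and hepatocyte sums, the T and NK sum (*Gzma* alone) and the neutrophil sum (mostly *Lcn2*) are lower.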

How the data were processed

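RNA-seq of 6 whole livers, 3 per genotype, was analysed from one deposited table. According to the study's methods and the submitters' processing notes, the authors trimmed reads with cutadapt 2.5, aligned them to GRCm38 (mm10) with HISAT2 2.1.0, counted them with featureCounts 1.6.3 and compared groups with DESeq2. The values the authors deposited were taken as TPM, reads per gene length scaled to a common total, a unit the table does not name, since value times joined exon length (GENCODE M21) came out within 0.02 of a whole read for 92.2 to 92.6% of values below 5000 reads, and for all 43 members. Libraries were stranded, and the strand setting of the counting is not given in the sources used here. Library totals are unknown. The columns of the authors' own comparison (fold change, p, adjusted p, direction) were used only to check that every row met the selection limits. All 6 value columns were mapped to samples by title.

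Log2(TPM + 0.1) was compared with limma 3.58.1 in R 4.3.3 (lmFit, eBayes with a mean-variance trend) over all 3201 rows, with Benjamini-Hochberg adjustment over all rows. The fit was also run on simulated data, which were not selected for a difference as these rows were. That run therefore gives no support to the calls. Tables were made in Python 3.11.15. Alternatives were pseudocounts of 1 and 0.01, a mean of at least 1 TPM, rescaled livers, no trend, protein-coding rows, no fold limit, the replicate number as a block, each liver left out, and limma-voom on recovered reads. Intervals and floors cover counting error only. Members, gene lists and tests were chosen with earlier results of these data known. Full statistics were given, per list, for up to 8 called members of at least 1 TPM with the largest changes, up to 3 uncalled members, every Kupffer member, and the 3 largest changes of signalling partners each way. The other members are described by their levels. Some genes are counted here but not reported by name.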

Additional observations from a re-analysis of the deposited data

How the results depend on the processing

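All 43 members kept their direction under each of the 15 alternatives in which they were tested. With a pseudocount of 1, 13 members were called higher and 2 lower, in place of 32 and 5. The 13 were 2 of the lymphoid list, 9 of the monocyte-macrophage list, *Cd207* and *Cd93*, and the 2 were *Cd1d1* and *Cd36*, with 0 lower of the monocyte-macrophage list. Of the signalling partners, a separate list, 3 were then called higher. In rescaled livers 7 members were called higher (*Ccr2*, *Cd207*, *Fcrlb*, *Ly6d*, *Ms4a4a*, *Ms4a6c* and *Ms4a8a*), of which 2 were lymphoid and 4 monocyte-macrophage, with 0 higher signalling partners. The share of higher calls among all called rows moved from 58.1% to 18.5% there, to 32.0% with a pseudocount of 1 and to 44.5% among rows of at least 1 TPM. Among those rows, 30 members were tested, 0 of the monocyte-macrophage list were lower and 5 signalling partners were higher. With each liver left out, 28 to 33 members were called higher and 4 to 5 lower. Limma-voom on recovered reads called 38 higher and 5 lower. The replicate number as a block called 32 higher and 5 lower and changed no call among the members. Same-numbered livers are different animals, and their deviations from the group means correlated at 0.0574, 0.00597 and 0.0307 across rows, so the numbers were not used as pairs. Of 429 values of the 29 named genes under the alternatives, 387 kept their call, 23 lost it and 19 gained it. The cause of these shifts was not tested. Counting error is largest for *Cd200r3*, *Cd300e* and *Fcrlb*.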

Other observations

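*Clec7a*, which encodes the beta-glucan receptor dectin-1 and is listed under a pseudogene type, had 0.835, 0.80 and 0.673 TPM in Fgf18 f/f livers, compared with 2.45, 1.69 and 3.05 TPM in Fgf18 ΔHSC livers. Its log2 fold change was 1.49 ± 0.23 (SE, adjusted p = 0.000565 by limma), above the median of 1.26 over the monocyte-macrophage list. *Gimap1os*, the antisense transcript at *Gimap1*, had 2 to 12 reads in each Fgf18 f/f liver and 13 to 20 in each Fgf18 ΔHSC liver.
Of the 43 members, 27 lie within 1000000 bases of another member, in 8 clusters. Members of 5 clusters, those of Ms4a, Clec4, Ccr, Fc receptor and Pirb genes, had levels that were all higher, and the Gimap pair was higher without passing the threshold. The Cd300 cluster and the pair of *Clec2h* and *Clec1a* held members that moved in opposite directions.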
